A study of Homo sapiens with 12 samples.

Results

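The 4 simple epithelial keratin genes KRT7, KRT8, KRT18 and KRT19 and the vimentin gene VIM were followed in LX2 cells. The members were taken by their gene names in the deposited expression table, where each name stood once, and they are 5 of the 60612 genes listed. The label fitted the genes: all 5 encode cytoplasmic intermediate filament proteins.

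Keratin filaments are obligate heteropolymers, in which a type II keratin (KRT7, KRT8) pairs with a type I keratin (KRT18, KRT19). KRT8 and KRT18 form the filament pair of hepatocytes and of most simple epithelia, whereas KRT7 and KRT19 are added in bile duct cells. VIM encodes the type III filament protein of mesenchymal cells, including hepatic stellate cells, the vitamin A storing pericytes of the liver that turn into matrix-producing myofibroblasts after injury.

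LX2 is 1 immortalised line of human hepatic stellate cells, labelled wild type, and its polyadenylated RNA was sequenced in 12 libraries. Cells of every group were starved of serum for 16 h, beginning 24 h after seeding. The STINGX with TGFb group (4 libraries) was first held for 3 h in 10 µM STINGX, a compound known here only by its code name, and then given TGFb at 5 ng/ml for 16 h, the TGFb group (4 libraries) received the cytokine alone, and the control group (4 libraries) was untreated. No group received STINGX alone, and a vehicle is not named. Whether the replicates were separate cultures is not stated, so the p-values below rest on the spread between these libraries alone, and that spread may be technical.

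Library totals ran from 54035320 to 70787741 estimated counts. Levels are in CPM, counts scaled to the library total after trimmed-mean scaling and given per 1e6, with 1 count worth 0.0135 to 0.0192 CPM. The deposited FPKM, which also divides by a length for each gene, is used where levels of different genes are set side by side. Which length was used is not known here, and ratios, sums and shares across genes depend on it. Of 16 stellate cell markers 13 averaged at least 1 CPM, led by COL1A1 at 3439 CPM, while LRAT and DES were at 0 in every library. The stellate markers summed to 2929 to 2977 CPM in STINGX with TGFb libraries, 9324 to 9588 CPM in TGFb libraries and 4109 to 4332 CPM in control libraries. That is the same order of groups as for KRT7, KRT8 and KRT18. The largest part of each sum was COL1A1, which averaged 1644, 6367 and 2307 CPM in these groups. Of 13 hepatocyte markers only SERPINA1 reached 1 CPM, and ALB was at 0 throughout. Of 12 bile duct markers 6 reached 1 CPM, among them SOX9 and the broadly expressed SLC4A2, and their summed level was 332 to 347 CPM in STINGX with TGFb libraries, 353 to 385 CPM in TGFb libraries and 318 to 323 CPM in control libraries. SOX9 averaged 20.45, 30.84 and 31.54 CPM in these groups. Lower were EPCAM (0.0146, 0.0171 and 0.0148 CPM), CDH1 (0.0384, 0.0863 and 0.0111 CPM) and CFTR, which was at 0. Endothelial markers summed to 57.3 to 60.4 CPM, 40.4 to 43.1 CPM and 46.0 to 52.8 CPM, and leukocyte markers, led by CD68, to 76.6 to 91.6 CPM, 31.7 to 37.9 CPM and 74.2 to 82.7 CPM. Mesothelial markers summed to 81.4 to 84.4 CPM, 55.7 to 63.8 CPM and 69.8 to 78.2 CPM, with MSLN at 0.216, 0.0748 and 0.0841 CPM.

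In FPKM the order of the genes was the same in the 3 groups, with VIM first, then KRT18, KRT8, KRT7 and KRT19. VIM averaged 513 ± 44.7 FPKM in STINGX with TGFb cells, 463 ± 36.0 FPKM in TGFb cells and 478 ± 24.3 FPKM in control cells (SD, n = 4 each), which placed it at ranks 32, 37 and 38 of all genes. KRT18 averaged 34.1 ± 1.49, 60.7 ± 9.22 and 51.4 ± 3.01 FPKM in the same groups, and KRT8 averaged 11.1 ± 0.477, 19.5 ± 0.305 and 16.1 ± 0.906 FPKM. KRT7 was at 2.15 ± 0.203, 5.90 ± 0.579 and 3.09 ± 0.580 FPKM, and no library of KRT19 exceeded 0.104 FPKM. Neighbours in this order did not overlap in any group, so the ranking held in each of the 12 libraries.

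KRT7, KRT8 and KRT18 rose with TGFb and were lowered below the untreated level when STINGX preceded TGFb, while VIM did not pass the test in any comparison and KRT19 was barely detected. Of the 5 members 4 passed the filter on low counts. With TGFb against control, 3 of those 4 were higher (adjusted p under 0.05, edgeR quasi-likelihood test with Benjamini-Hochberg adjustment over 21328 genes), where 13.2% of all genes tested were higher and 12.8% lower. With STINGX and TGFb against TGFb the same 3 genes were lower, where 13.8% of all genes were lower and 13.7% higher. With STINGX and TGFb against control they were again lower, where 17.0% of all genes were lower and 17.2% higher. The last 2 comparisons share the STINGX with TGFb libraries and the first 2 share the TGFb libraries, so the 3 results are not independent of each other. In bulk RNA, fewer cells with keratin and less keratin RNA per cell cannot be told apart. The part of the marker sums given above in these changes was not tested.

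**Figure D1:**
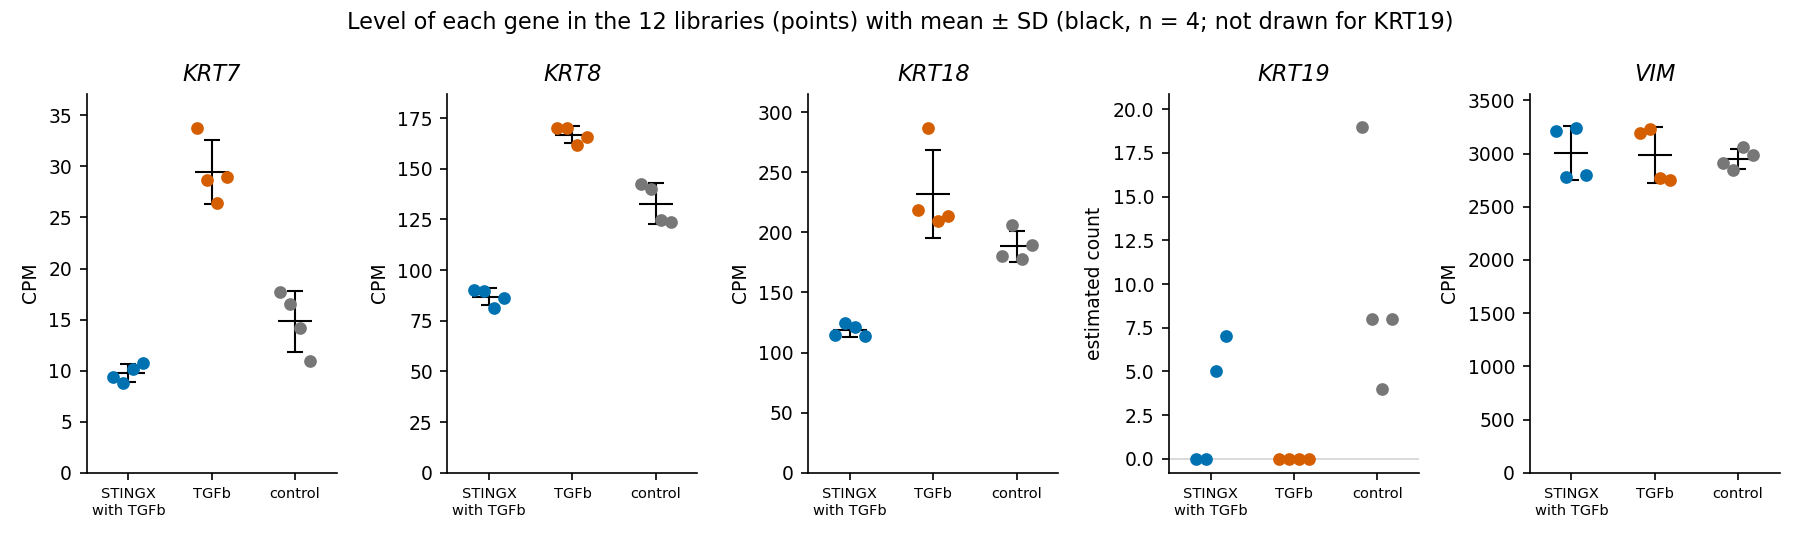
Level of each gene in every library, in CPM on axes that start at 0, or as estimated counts for KRT19. Points are libraries, black bars are mean ± SD of 4 libraries (not drawn for KRT19); KRT7, KRT8 and KRT18 are highest in the TGFb libraries and lowest in the STINGX with TGFb libraries, and the 3 groups of VIM overlap.

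KRT8, the type II partner of the pair, lies on the minus strand at chr12:52897187-52949920 (GRCh38). It had 90.3, 89.6, 81.1 and 86.3 CPM in the STINGX with TGFb libraries, 170.1, 169.9, 162 and 166 CPM in the TGFb libraries, and 143, 140.2, 125 and 124 CPM in the control libraries. The 3 groups did not overlap: every TGFb library was above every control library, and every STINGX with TGFb library was below all others. KRT8 rose 1.26-fold with TGFb over control (log2 fold change 0.33 ± 0.06 SE, edgeR adjusted p = 0.000675). With STINGX and TGFb it fell to 0.520 times the TGFb level (log2 fold change -0.94 ± 0.06, edgeR adjusted p = 6.88e-08) and to 0.654 times the control level (log2 fold change -0.61 ± 0.06, edgeR adjusted p = 2.82e-06).

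The transcript KRT8-215 was assigned 56.2% of the KRT8 counts, so the 250 bases before its 5′ end are shown. They are given as in the RefSeq promoter table (GRCh38.p14) on the minus strand, chr12:52926470-52926719. The share is an estimate that was 0 in TGFb replicate 3, and it does not show that this start is used. Capitals mark the single match found to the motifs searched.
KRT8: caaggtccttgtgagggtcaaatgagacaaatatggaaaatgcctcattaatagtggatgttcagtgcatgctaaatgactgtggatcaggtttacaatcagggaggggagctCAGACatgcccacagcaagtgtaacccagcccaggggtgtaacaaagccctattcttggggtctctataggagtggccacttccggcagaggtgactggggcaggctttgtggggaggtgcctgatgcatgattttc

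Searched on both strands were the SMAD letters CAGAC, the AP-1 letters TGANTCA, the TEAD letters GGAATG and the GC box letters GGGCGG, which do not overlap each other in this window. CAGAC was found once, 137 bases before the start, and 38.0% of 35116 promoter windows of the same length hold it. The other motifs were not in these letters, while 6.57%, 11.9% and 42.6% of all windows hold the AP-1, TEAD and GC box letters. A match is a description of the letters and not a binding site. The VIM window in the table belongs to a start 1019 bases from that of VIM-201 and is not shown.

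KRT18, the type I partner, lies on the plus strand at chr12:52948871-52952900, and its first 1050 bases overlap the listed span of KRT8 on the other strand. The kit keeps strand, but whether the counting used it is not known here, so reads of the pair within that overlap may be shared. KRT18 had 114, 124, 122 and 114 CPM in the STINGX with TGFb libraries, 219, 287, 209 and 214 CPM in the TGFb libraries, and 180.4, 206, 178 and 189.7 CPM in the control libraries. All STINGX with TGFb libraries were lowest, and all TGFb libraries lay above all control libraries, the nearest pair being 209 and 206 CPM. TGFb replicate 2 stood apart at 287 CPM.

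With STINGX and TGFb, KRT18 fell to 0.511 times the TGFb level (log2 fold change -0.97 ± 0.09, edgeR adjusted p = 5.13e-06) and to 0.629 times the control level (log2 fold change -0.67 ± 0.09, edgeR adjusted p = 0.000101). Its rise with TGFb over control was smaller and less certain, at 1.23-fold (log2 fold change 0.30 ± 0.09, 95% interval 0.10 to 0.51, edgeR adjusted p = 0.0273). Without TGFb replicate 2 that log2 change was 0.18 (edgeR adjusted p = 0.0376). The call was lost on leaving out control replicate 1, 3 or 4 (edgeR adjusted p = 0.0736, 0.0744 and 0.0542) and with library size as the only scaling (edgeR adjusted p = 0.0592).

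The ratio of KRT18 to KRT8 in FPKM averaged 3.07 ± 0.226 in STINGX with TGFb cells, 3.12 ± 0.447 in TGFb cells and 3.19 ± 0.259 in control cells (SD, n = 4 each), and the 3 groups overlapped. The ratio of 3.79 in TGFb replicate 2 was the highest of the 12 libraries, and the other three TGFb libraries had 2.89, 2.90 and 2.90. Together KRT8 and KRT18 made up 66.1 ± 0.810%, 70.6 ± 2.56% and 73.7 ± 1.67% of the summed FPKM of the 54 keratin genes in the 3 groups. These values depend on the gene lengths behind FPKM. In CPM, not divided by length, KRT18 averaged 119, 232 and 188 and KRT8 86.8, 167 and 133 in the same groups. The transcripts assigned most counts, KRT18-201 and KRT8-215, are 1562 and 1687 bases long. The FPKM ratio therefore does not give the ratio of KRT18 to KRT8 molecules.

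KRT7, the type II keratin of bile duct and other ductal cells, lies on the plus strand at chr12:52232520-52252186, 645001 bases before KRT8. It had 9.38, 8.83, 10.2 and 10.8 CPM in the STINGX with TGFb libraries, 33.8, 28.7, 26.4 and 28.96 CPM in the TGFb libraries, and 17.7, 16.5, 14.2 and 10.9 CPM in the control libraries. The TGFb libraries were well above the rest, whereas the highest STINGX with TGFb library and the lowest control library, both replicate 4, were almost level. KRT7 rose 1.99-fold with TGFb over control (log2 fold change 0.99 ± 0.13, edgeR adjusted p = 0.000118). With STINGX and TGFb it fell to 0.332 times the TGFb level (log2 fold change -1.59 ± 0.14, edgeR adjusted p = 2.21e-06) and to 0.660 times the control level (log2 fold change -0.60 ± 0.14, edgeR adjusted p = 0.00522).

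The ratio of KRT7 to KRT8 in FPKM, both type II keratins, was 0.168 to 0.215 in STINGX with TGFb libraries, 0.280 to 0.341 in TGFb libraries and 0.151 to 0.213 in control libraries, so the TGFb libraries stood above both other groups, which overlapped each other. The listed span of KRT7 overlaps KRT86 on the same strand and KRT87P and KRT7-AS on the other, so the division of reads among these genes by the authors' software is uncertain. KRT7-AS, an antisense gene at chr12:52245048-52247448, had 392 counts over the 12 libraries. It rose with TGFb over control (0.919 ± 0.172 CPM in TGFb cells, 0.341 ± 0.122 CPM in control cells, log2 fold change 1.43 ± 0.32, edgeR adjusted p = 0.00518) and fell with STINGX and TGFb against TGFb (0.353 ± 0.129 CPM in STINGX with TGFb cells, log2 fold change -1.39 ± 0.31, edgeR adjusted p = 0.00521).

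KRT19, the smallest keratin and a bile duct and progenitor marker, lies on the minus strand at chr17:41523617-41528308. The STINGX with TGFb libraries gave 0, 0, 5 and 7 estimated counts, every TGFb library gave 0, and the control libraries gave 19, 8, 4 and 8. All control libraries held some counts and no TGFb library did, but KRT19 was below the filter and was not tested with the other members. With the 4 TGFb libraries together set at a floor of 3 counts, KRT19 was at least 11.1-fold lower with TGFb than in control. This bound was 7.49-fold without control replicate 1, which held 19 of the 39 control counts. With no filter on low counts, edgeR gave that comparison an adjusted p of 0.0461. The STINGX with TGFb level was 0.290 times the control level (95% counting interval 0.138 to 0.565), 2 of its 4 libraries were at 0, and with no filter the edgeR adjusted p was 0.270. The interval covers counting error only, and the values against the floor take the control counts as exact.

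VIM lies on the plus strand at chr10:17228241-17237593. It had 3208, 2781, 3239.95 and 2795 CPM in the STINGX with TGFb libraries, 3190.1, 3231, 2765 and 2753 CPM in the TGFb libraries, and 2908, 2849, 3060.4 and 2988 CPM in the control libraries. Each treated group held 2 libraries above and 2 below all control libraries, and the 3 groups overlapped. The log2 fold change was 0.02 for TGFb against control (95% interval -0.13 to 0.17, edgeR adjusted p = 0.894), 0.01 for STINGX with TGFb against TGFb (-0.14 to 0.16, edgeR adjusted p = 0.933) and 0.03 for STINGX with TGFb against control (-0.12 to 0.18, edgeR adjusted p = 0.798). A rise beyond 1.13-fold or a fall below 0.907 times lay outside all 3 intervals, but a p above the threshold does not show that the levels were equal. The sign of all 3 differences turned when some libraries were left out, and that of both differences from control turned under some scalings.

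**Figure D2:**
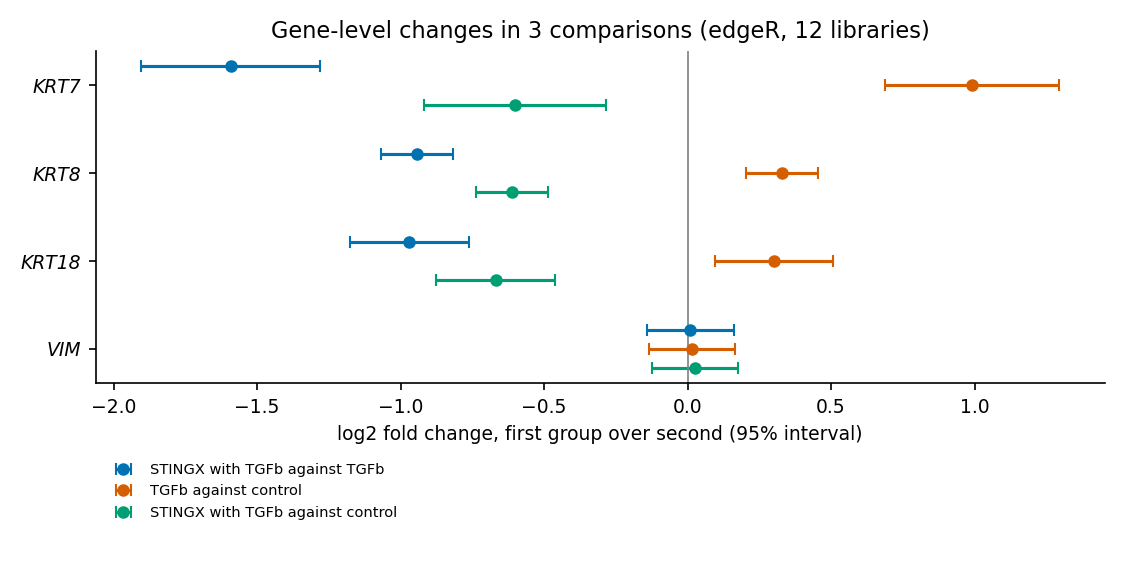
Log2 fold change of the 4 tested genes in each comparison, first-named group over the second, with 95% intervals from the edgeR fit of 12 libraries. The 3 keratins lie right of 0 for TGFb against control and left of 0 in both comparisons of STINGX with TGFb, and all 3 VIM intervals span 0.

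Set beside VIM, the 4 keratins summed to 47.4 ± 1.24 FPKM in STINGX with TGFb cells, 86.0 ± 9.32 FPKM in TGFb cells and 70.7 ± 3.18 FPKM in control cells (SD, n = 4 each), with no overlap between the groups. VIM was 10.8 ± 1.02 times that sum in STINGX with TGFb cells, 5.40 ± 0.385 times in TGFb cells and 6.78 ± 0.596 times in control cells. These ratios also did not overlap between groups, the nearest libraries being 5.90 in TGFb and 6.01 in control. VIM alone made up 75.5 ± 1.66%, 66.6 ± 1.22% and 68.1 ± 1.81% of the FPKM of the 69 intermediate filament genes in the table. The sizes of these sums, ratios and shares depend on the gene lengths behind FPKM, which are not known here.

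**Figure D3:**
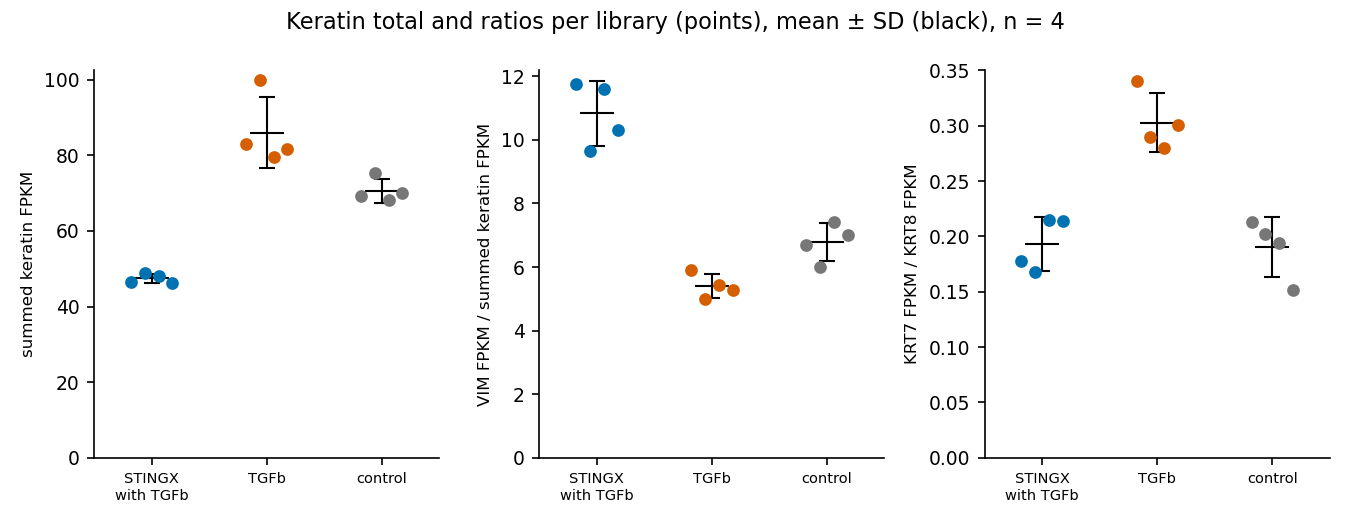
Summed FPKM of KRT7, KRT8, KRT18 and KRT19, the ratio of VIM to that sum, and the ratio of KRT7 to KRT8, on axes that start at 0. Points are libraries and black bars are mean ± SD of 4; the keratin sum is lowest and the VIM ratio highest in the STINGX with TGFb libraries, and the KRT7 to KRT8 ratio is highest in the TGFb libraries.

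Scaling moved all genes together to some degree. With library size as the only scaling the median log2 change of all genes was -0.07 for TGFb against control, 0.15 for STINGX with TGFb against TGFb and 0.08 for STINGX with TGFb against control, against -0.004, 0.006 and 0.004 under trimmed-mean scaling. Of the genes called in these comparisons 38.7%, 72.6% and 62.0% were then higher, against 50.7%, 50.0% and 50.3%. Under that scaling the log2 changes for STINGX with TGFb against TGFb were -1.45 for KRT7, -0.80 for KRT8 and -0.83 for KRT18, all called by edgeR (adjusted p = 3.29e-06, 5.73e-08 and 1.15e-05), and 0.15 for VIM (edgeR adjusted p = 0.107). The VIM value was close to the shift of the median gene.

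The genes whose pattern over the 12 libraries lay nearest to each member were found by the root mean square difference in log2 CPM, centred on each gene's mean, among 10310 genes of at least 10 CPM. For KRT7 they were ANGPTL2, SULF2 and HAPLN3 (differences 0.175, 0.178 and 0.184), with KRT8 at 0.331. ANGPTL2, a secreted angiopoietin-like protein, averaged 67.7 CPM in STINGX with TGFb cells, 199 CPM in TGFb cells and 98.0 CPM in control cells. For KRT8 they were MYL12B, a myosin regulatory light chain, GALNT2 and IL27RA (0.0794, 0.0809 and 0.0828), and KRT18 lay at 0.127. For KRT18 they were IL27RA, IER5L and the chemokine gene CXCL12 (0.0795, 0.111 and 0.113). CXCL12 averaged 165 CPM in STINGX with TGFb cells, 323 CPM in TGFb cells and 281 CPM in control cells. For VIM they were ATG2B, COA1 and ZDHHC13 (0.0570, 0.0651 and 0.0697). VIM itself had a root mean square of only 0.0909 about its mean, against 0.395 for KRT8. Genes chosen for nearness to so flat a pattern vary little, and these were not called in any comparison.

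Counts of single transcripts, estimated by the authors' software, showed which forms of each gene were assigned reads. The 14 transcripts of at least 5% of their gene belonged to KRT7 (2), KRT8 (5), KRT18 (3) and VIM (4), beside KRT19-201, which took 92.2% of the few KRT19 counts. Of these 14, 2 were higher with TGFb over control, where 1.17% of 79677 transcripts were higher and 1.17% lower. With STINGX and TGFb against TGFb 3 were lower, where 1.29% of all transcripts were lower and 1.12% higher, and against control 1 was lower, where 1.85% of all were lower and 1.6% higher.

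Most KRT7 counts (80.2%) were assigned to KRT7-212, a processed transcript annotated without a coding frame that starts 11264 bases downstream of the coding KRT7-201, which took 9.73%. KRT7-212 rose with TGFb over control (23.8 ± 3.40 CPM in TGFb cells, 11.7 ± 2.81 CPM in control cells, edgeR adjusted p = 0.0418) and fell with STINGX and TGFb against TGFb (7.88 ± 0.991 CPM in STINGX with TGFb cells, edgeR adjusted p = 0.00249). The rise was not called when any library other than control replicate 1 was left out, nor with the replicate block (edgeR adjusted p = 0.104). For the coding KRT7-201, the STINGX with TGFb libraries gave 62, 43, 67 and 43 counts, the TGFb libraries 185, 126, 199 and 213, and the control libraries 74, 92, 89 and 86. It fell with STINGX and TGFb against TGFb (log2 fold change -2.02 ± 0.30, edgeR adjusted p = 0.00409), and its log2 difference of 1.26 for TGFb against control did not pass (edgeR adjusted p = 0.0502), but did without TGFb replicate 2 (log2 change 1.43, edgeR adjusted p = 0.0397). The groups did not overlap in either comparison.

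Of the KRT8 counts 56.2% were assigned to KRT8-215, a coding transcript whose 5′ end lies 19851 bases upstream of that of KRT8-201. KRT8-201, also coding, held 11.7%, rose with TGFb over control (23.6 ± 2.80 CPM in TGFb cells, 12.2 ± 1.26 CPM in control cells, log2 fold change 0.89 ± 0.15, edgeR adjusted p = 0.00981) and fell with STINGX and TGFb against TGFb (10.2 ± 1.14 CPM in STINGX with TGFb cells, log2 fold change -1.17 ± 0.15, edgeR adjusted p = 0.00164). With the replicate block the rise had an edgeR adjusted p of 0.0559. KRT8-217, a coding form whose 5′ end lies within the span of KRT18, was lower with STINGX and TGFb than in control (6.54 ± 0.595 CPM in STINGX with TGFb cells, 10.9 ± 1.13 CPM in control cells, log2 fold change -0.77 ± 0.17, edgeR adjusted p = 0.0382), and this call was lost on leaving out any library other than TGFb replicate 1, with library size alone (edgeR adjusted p = 0.0701), with no filter (0.0656) and with the replicate block (0.127).

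Assignment to transcripts jumped between libraries. In TGFb replicate 3, KRT8-215 was at 0 counts and KRT8-213, a form with a retained intron, at 4788. In the other three TGFb libraries KRT8-215 had 6721, 6178 and 5463 counts and KRT8-213 had 360, 393 and 308, while the KRT8 total of replicate 3 lay close to theirs. Without that library KRT8-215 was called lower with STINGX and TGFb, by a log2 change of -1.0 against TGFb (edgeR adjusted p = 0.00904) and -0.65 against control (edgeR adjusted p = 0.0406). In TGFb replicate 2, KRT18-207 had 3 counts and KRT18-201 had 12963, whereas the other TGFb libraries held 3984 to 6892 counts of KRT18-207 and 3659 to 4937 of KRT18-201. Both forms are coding, and the same library had the high KRT18 total of 287 CPM. The major VIM form, VIM-201, took 59.8% to 89.0% of VIM in STINGX with TGFb libraries, 59.5% to 87.6% in TGFb libraries and 57.1% to 65.6% in control libraries. With all 12 libraries and trimmed-mean scaling no transcript of KRT18 or VIM was called. With library size as the only scaling, VIM-201 was called higher with STINGX and TGFb than in control (log2 change 0.50, edgeR adjusted p = 0.0436). Without STINGX with TGFb replicate 1, VIM-201 was called higher and VIM-206 lower with STINGX and TGFb than in control (log2 change 0.49 and -2.08, edgeR adjusted p = 0.0392 and 0.0437). Differences between forms of these genes were not read further.

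**Figure D4:**
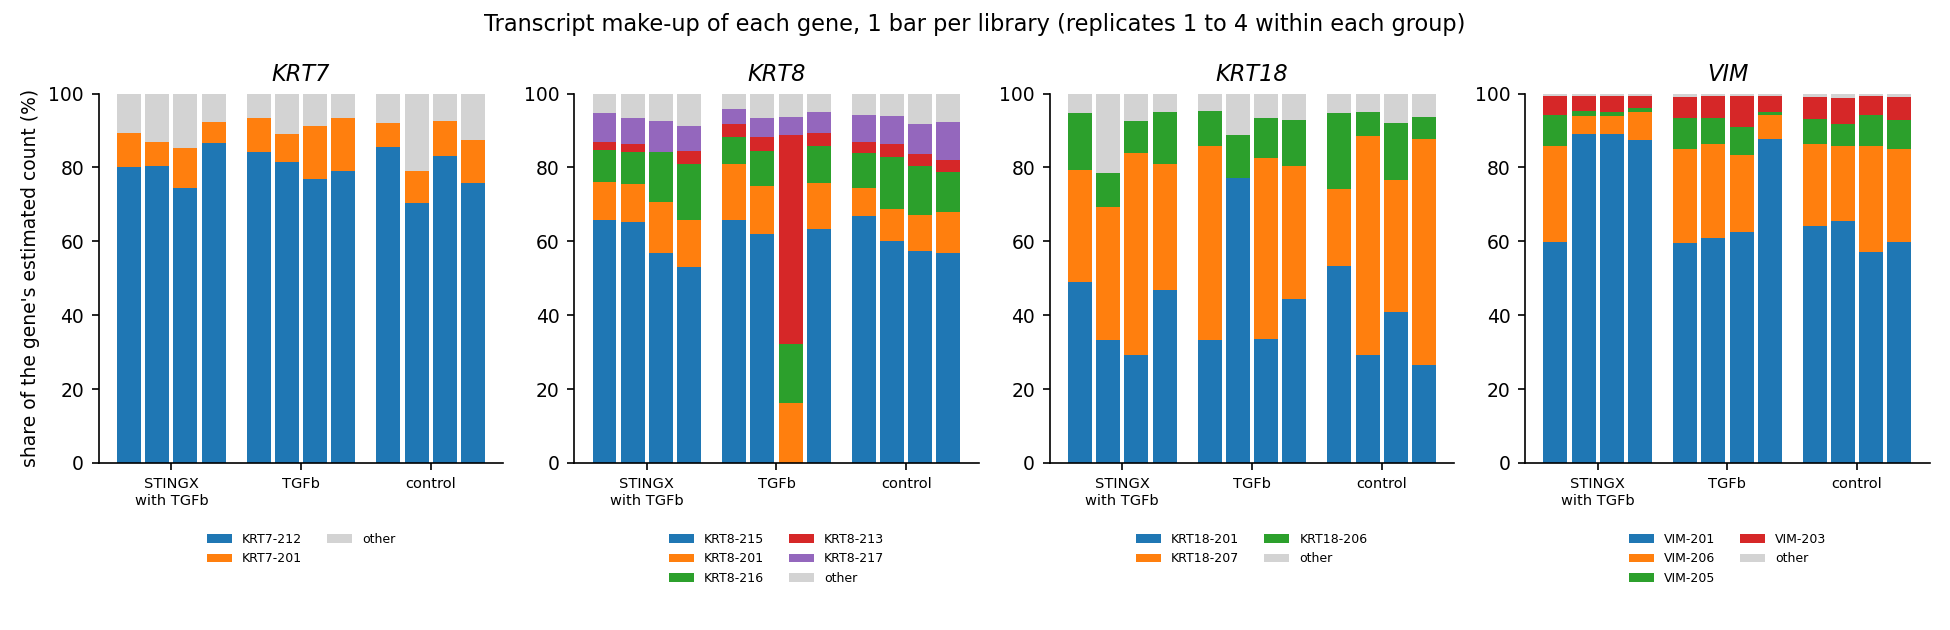
Share of each gene's estimated count assigned to its transcripts of at least 5%, as stacked bars from 0 to 100%, 1 bar per library in replicate order within each group. KRT8 in TGFb replicate 3 and KRT18 in TGFb replicate 2 have a make-up unlike the other libraries of their group, and VIM-201 varies between 59.5% and 89.0% among treated libraries.

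KRT8 and KRT18 have many processed pseudogenes, copies of the messenger RNA elsewhere in the genome that can take up reads. The table lists 51 rows named as KRT8 pseudogenes, with 11522 counts over the 12 libraries beside 95905 for KRT8, and 67 rows named for KRT18, with 1.58% of its count. KRT8P12 on chromosome 3 (chr3:160565447-160569248) alone held 7688 counts. The coding sequence of KRT18-201 (GENCODE 29) was 91.6% identical to KRT18P5-201.

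KRT8P12 averaged 9.08 ± 0.872 CPM in STINGX with TGFb cells, 10.6 ± 0.838 CPM in TGFb cells and 10.7 ± 0.343 CPM in control cells and did not pass in any comparison (edgeR adjusted p = 0.0804 for STINGX with TGFb against TGFb, 0.939 for TGFb against control and 0.0529 for STINGX with TGFb against control). It was called lower with STINGX and TGFb by DESeq2, against control (log2 change -0.25, adjusted p = 0.027) and against TGFb (-0.23, adjusted p = 0.0485), and against control also under 4 other settings and without STINGX with TGFb replicate 1 or 4 or TGFb replicate 2. KRT8P33 was higher with STINGX and TGFb than in control (1.69 ± 0.171 CPM in STINGX with TGFb cells, 0.930 ± 0.218 CPM in control cells, edgeR adjusted p = 0.0286), a call lost on leaving out STINGX with TGFb replicate 1 or 4 or control replicate 2 or 3. KRT8P3, KRT18P5, KRT18P4 and KRT18P59 were not called with all 12 libraries; KRT18P5 was called higher with TGFb over control without TGFb replicate 1 (log2 change 0.92, edgeR adjusted p = 0.0398). With every pseudogene count added to its parent, KRT8 still rose with TGFb over control (log2 fold change 0.31) and fell with STINGX and TGFb against TGFb (-0.85) and against control (-0.55), with edgeR adjusted p = 0.000701, 9.08e-08 and 4.37e-06.

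VIM-AS1 lies on the other strand and overlaps the 5′ end of VIM. It averaged 1.87 ± 0.173 CPM in STINGX with TGFb cells, 3.24 ± 0.504 CPM in TGFb cells and 3.72 ± 0.847 CPM in control cells. It fell with STINGX and TGFb to 0.577 times the TGFb level (edgeR adjusted p = 0.0101) and to 0.502 times the control level (edgeR adjusted p = 0.0014). Since strand may not have been used, VIM reads in the overlap may be among these counts. AL133415, another gene on the other strand within the span of VIM, had 5609 counts over the 12 libraries, and the same limit holds for it.

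Several other type II keratins shared the directions of KRT7 and KRT8. Of 24 other type II genes 6 were tested: with TGFb over control 4 rose (13.2% of all genes; median log2 change 0.73, all genes -0.004), and with STINGX and TGFb against TGFb 5 fell (13.8% of all genes; median -1.34, all genes 0.006). Against control, 2 of the 6 fell with STINGX and TGFb (17.0% of all genes; median -0.03). KRT81, a hair-type keratin, averaged 6.23 ± 1.35 CPM in STINGX with TGFb cells, 24.0 ± 0.807 CPM in TGFb cells and 7.41 ± 1.50 CPM in control cells. It rose with TGFb over control (log2 fold change 1.70 ± 0.15, edgeR adjusted p = 2.9e-06) and fell with STINGX and TGFb against TGFb (-1.95 ± 0.15, edgeR adjusted p = 9.22e-07), and its difference from control with STINGX and TGFb did not pass (-0.25 ± 0.16, edgeR adjusted p = 0.27). KRT86, its near-identical neighbour that also overlaps KRT7, fell with STINGX and TGFb against TGFb (0.761 ± 0.313 CPM in STINGX with TGFb cells, 4.26 ± 0.659 CPM in TGFb cells, -2.45 ± 0.23, edgeR adjusted p = 4.28e-06). Its rise with TGFb over control (0.60 ± 0.18, edgeR adjusted p = 0.03) was lost on leaving out TGFb replicate 1, 3 or 4 or control replicate 2, 3 or 4, and reads of KRT81 and KRT86 may be split uncertainly.

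KRT80, an epithelial type II keratin, fell with STINGX and TGFb (14.1 ± 1.15 CPM) against TGFb (23.5 ± 4.72 CPM, edgeR adjusted p = 0.0103) and against control (28.2 ± 6.77 CPM, edgeR adjusted p = 0.00107), and did not pass for TGFb against control (log2 fold change -0.26, edgeR adjusted p = 0.332). KRT79 rose with TGFb over control (3.44 ± 0.518 CPM in TGFb cells, 1.89 ± 0.341 CPM in control cells, edgeR adjusted p = 0.00658). Its fall with STINGX and TGFb against TGFb (edgeR adjusted p = 0.0211) was lost on leaving out STINGX with TGFb replicate 1, 3 or 4 or TGFb replicate 2 or 3.

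Of 26 other type I keratins 5 were tested. With TGFb over control 1 fell (12.8% of all genes; median log2 change -0.27), with STINGX and TGFb against TGFb 2 rose and 1 fell (13.7% and 13.8% of all genes; median 0.39), and against control 3 rose and 1 fell (17.2% and 17.0% of all genes; median 0.37). A count of 1 of 5 is near the share of all genes. KRT34, a hair-type type I keratin, averaged 9.51 ± 1.07 CPM in STINGX with TGFb cells, 5.49 ± 0.485 CPM in TGFb cells and 6.63 ± 0.832 CPM in control cells. It rose with STINGX and TGFb against TGFb (log2 fold change 0.80 ± 0.12, edgeR adjusted p = 0.000262) and against control (0.53 ± 0.11, edgeR adjusted p = 0.00338). KRT10, known from differentiating epidermis, rose with STINGX and TGFb against control (21.8 ± 1.64 CPM in STINGX with TGFb cells, 16.9 ± 2.17 CPM in control cells, edgeR adjusted p = 0.0119) and did not pass in the other comparisons. Neither was called in the direction of KRT18 in any comparison.

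Of 22 genes of filament linkers and desmosomes 20 were tested. With TGFb over control 4 rose and 8 fell (13.2% and 12.8% of all genes; median log2 change -0.24), with STINGX and TGFb against TGFb 5 rose and 4 fell (13.7% and 13.8% of all genes; median -0.06), and against control 6 rose and 7 fell (17.2% and 17.0% of all genes; median 0.07). The counts of 4 of 20 are not far from the share of all genes. DSP, which encodes desmoplakin and ties keratin filaments to desmosomes, averaged 46.4 ± 2.41 CPM in STINGX with TGFb cells, 133 ± 6.79 CPM in TGFb cells and 23.4 ± 0.728 CPM in control cells. It rose with TGFb over control (log2 fold change 2.51 ± 0.06, edgeR adjusted p = 6.19e-12), fell with STINGX and TGFb against TGFb (-1.52 ± 0.05, edgeR adjusted p = 4.61e-10) and, unlike the keratins, remained above control (0.99 ± 0.05, edgeR adjusted p = 2.86e-08). JUP, which encodes plakoglobin, averaged 24.4 ± 3.64, 65.0 ± 7.98 and 49.6 ± 6.28 CPM in the same groups and fell with STINGX and TGFb against TGFb (-1.41 ± 0.13, edgeR adjusted p = 2.86e-06) and against control (-1.02 ± 0.12, edgeR adjusted p = 3.91e-05).

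PLEC, which encodes plectin, a linker of intermediate filaments to actin and to hemidesmosomes, rose with TGFb over control (634 ± 41.8 CPM in TGFb cells, 369 ± 29.1 CPM in control cells, edgeR adjusted p = 1.87e-05) and fell with STINGX and TGFb against TGFb (456 ± 53.6 CPM in STINGX with TGFb cells, edgeR adjusted p = 0.00103). Like DSP, PLEC remained above control with STINGX and TGFb (log2 fold change 0.31 ± 0.08, edgeR adjusted p = 0.0135). Other anchors went the opposite way with TGFb. PKP3, a plakophilin of the desmosome, fell to 0.872 ± 0.125 CPM in TGFb cells, against 3.69 ± 0.181 CPM in control cells (edgeR adjusted p = 1.21e-06). ITGB4, the hemidesmosome integrin, fell to 6.50 ± 0.515 CPM in TGFb cells, against 19.1 ± 1.02 CPM in control cells (edgeR adjusted p = 7.87e-08), and DST, which encodes dystonin, fell to 259 ± 27.5 CPM in TGFb cells, against 370.1 ± 16.5 CPM in control cells (edgeR adjusted p = 8.92e-05).

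**Figure D5:**
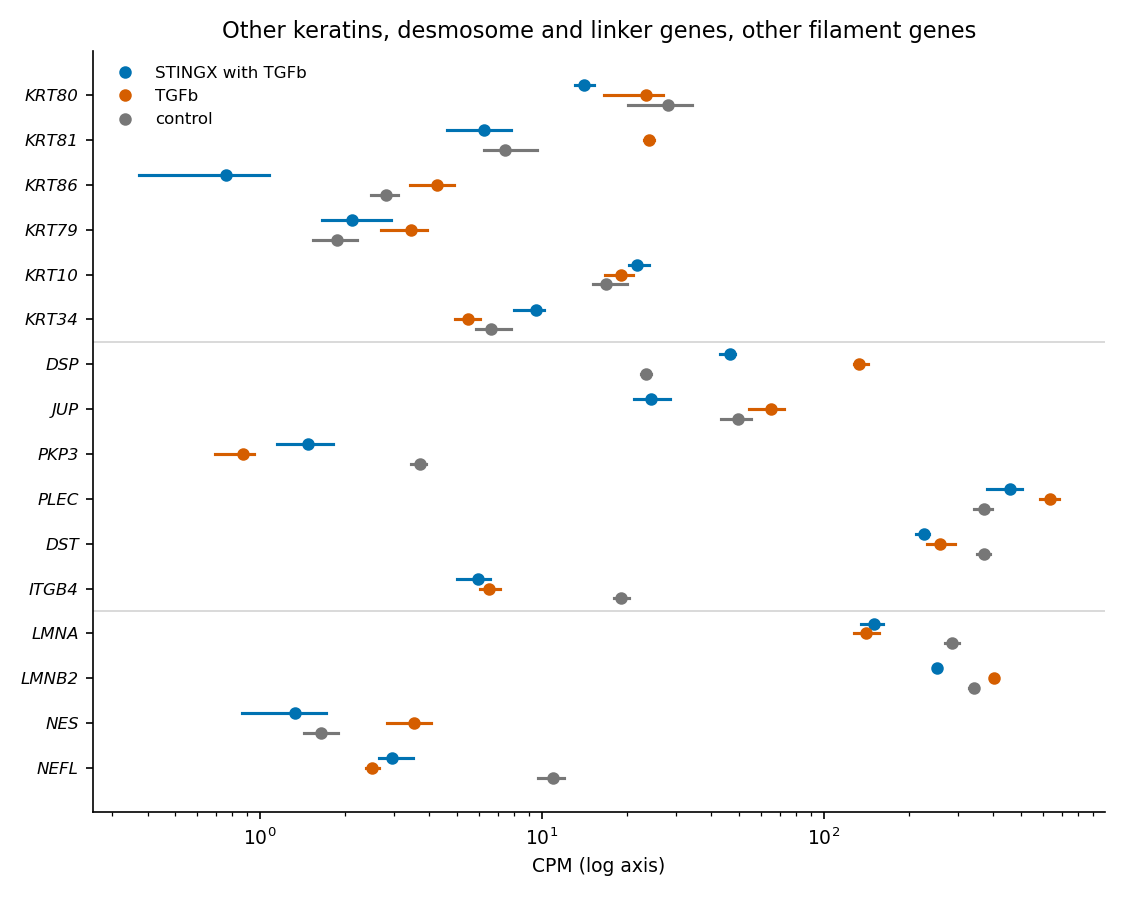
Mean CPM (point) and range over 4 libraries (line) of other keratins, of desmosome and linker genes and of other filament genes in each group, on a log axis. DSP, KRT81 and JUP are highest in the TGFb cells, while PKP3, ITGB4, LMNA and NEFL are highest in the control cells.

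Of 29 genes of epithelial identity 19 were tested. With TGFb over control 2 rose and 6 fell (13.2% and 12.8% of all genes; median log2 change -0.61), with STINGX and TGFb against TGFb 2 rose and 4 fell (13.7% and 13.8% of all genes; median -0.38), and against control 1 rose and 4 fell (17.2% and 17.0% of all genes; median -0.41). The counts of 2 of 19 are near the shares of all genes that rose, and 1 of 19 is below its share by few genes. CLDN1, a tight junction claudin, averaged 50.1 ± 2.89 CPM in STINGX with TGFb cells, 18.9 ± 1.37 CPM in TGFb cells and 45.8 ± 1.39 CPM in control cells, the reverse of the keratin order between TGFb and the others. It fell with TGFb over control (log2 fold change -1.28 ± 0.06, edgeR adjusted p = 1.22e-08) and rose with STINGX and TGFb against TGFb (1.41 ± 0.06, edgeR adjusted p = 5.02e-09). OCLN, which encodes occludin, likewise rose with STINGX and TGFb against TGFb (27.7 ± 3.07 CPM in STINGX with TGFb cells, 14.1 ± 0.747 CPM in TGFb cells, edgeR adjusted p = 4.83e-06).

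SPINT1, an inhibitor of epithelial membrane proteases, had the keratin order: it rose with TGFb over control (4.45 ± 0.317 CPM in TGFb cells, 2.19 ± 0.525 CPM in control cells, edgeR adjusted p = 0.000816) and fell with STINGX and TGFb against TGFb (1.56 ± 0.331 CPM in STINGX with TGFb cells, edgeR adjusted p = 4.52e-05). TJP1, the scaffold protein of tight junctions, rose with TGFb over control (242 ± 14.7 CPM in TGFb cells, 148 ± 7.89 CPM in control cells, edgeR adjusted p = 1.36e-05) and fell with STINGX and TGFb against TGFb (180.2 ± 19.4 CPM in STINGX with TGFb cells, edgeR adjusted p = 0.000879). Unlike KRT7, KRT8 and KRT18, TJP1 remained above control with STINGX and TGFb (log2 fold change 0.28 ± 0.07, edgeR adjusted p = 0.0104). MUC1 fell to 7.79 ± 1.76 CPM in TGFb cells, against 14.1 ± 3.33 CPM in control cells (edgeR adjusted p = 0.00956), and EHF, an epithelial transcription factor gene, fell to 1.77 ± 0.257 CPM in TGFb cells, against 3.61 ± 0.687 CPM in control cells (edgeR adjusted p = 0.00108). The fall of CLDN4 with STINGX and TGFb against TGFb (log2 fold change -0.78 ± 0.27, edgeR adjusted p = 0.0476) was lost on leaving out STINGX with TGFb replicate 1 or 3, TGFb replicate 2, 3 or 4 or any control library.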

How the data were processed

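Polyadenylated RNA of LX2 cells was sequenced in 3 labelled groups of 4 libraries. The authors deposited whole-number estimated counts per gene and per transcript, and FPKM values per gene in which a count of 0 is listed at 0.0001. Per the submitters' processing notes the tools were cutadapt, HISAT2, StringTie and edgeR with build GRCh38. Which step each served, the versions, the annotation release and the use of strand are not stated there. Tests on the estimated counts used edgeR 4.0.16 under R 4.3.3 (filterByExpr with minimum count 10 and minimum total 15, trimmed-mean scaling, robust quasi-likelihood F test in its newer form, 1 fit of 12 libraries with 9 residual degrees of freedom, Benjamini-Hochberg adjustment over all genes or transcripts, threshold 0.05). The code was tested on simulated data. SE and 95% intervals derive from the F statistic. The transcript test does not model assignment error. Every pair of replicates differed by more than counting error (chi-square over its degrees of freedom, 42.4 to 90.6). These are estimated counts, so error in assigning reads may be part of that difference.

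Named in the text are the 5 members, their transcripts of at least 5%, up to 3 pseudogene or antisense genes per member by count, the 3 genes nearest in pattern, and per list and comparison up to 4 called genes with the largest change and a mean of at least 2 CPM plus the 2 of highest level; not every such gene is printed. The members and lists were chosen with earlier results of these data known. Transcript names, positions and coding sequences are from GENCODE 29 (55 of 55 transcripts matched by identifier), promoters from RefSeq (matched for KRT8 and VIM). A comparison of a KRT8 coding sequence with a copy is not reported here. Alternatives were DESeq2 1.42.0, limma 3.58.1 (voom, and log2 FPKM with a pseudocount of 1 or 0.1), other scalings and filters, the older quasi-likelihood form, 2 groups only, pseudogene counts added, the replicate block, and each library left out.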

Additional observations from a re-analysis of the deposited data

Results flagged for a closer look

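In 14 of 159 groups of 4 libraries (8.81%) 1 library stood far from the other three, by a test of the gap to its neighbour over the whole range of the group. Chance gives about 1 in 20 groups. Among gene levels, KRT18 was at 287 CPM in TGFb replicate 2, where the other three libraries had 209 to 219 CPM. VIM-AS1 was low in replicate 2 of the TGFb libraries (2.49 CPM) and in replicate 2 of the control libraries (2.46 CPM). ITGA6 was high in STINGX with TGFb replicate 2 (60.1 CPM) and LMNB1 in STINGX with TGFb replicate 1 (123 CPM). LMNB2 in TGFb replicate 1 (398 CPM), SYNM in TGFb replicate 4 (21.1 CPM) and OCLN in control replicate 2 (22.4 CPM) were the low libraries of their groups.

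Among transcript shares, KRT8-215 made up 0.0% and KRT8-213 56.7% of KRT8 in TGFb replicate 3. In STINGX with TGFb replicate 1, VIM-201 took 59.8% of VIM, VIM-206 26.1% and VIM-205 8.43%, where VIM-201 took 87.4% to 89.0% in the other three. In TGFb replicate 4, VIM-201 took 87.6%, where the other three had 59.5% to 62.4%.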

How the results depend on the processing

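No direction of KRT7, KRT8 or KRT18 turned under the 14 other settings or the 12 fits that each left out 1 library, and only the KRT18 rise with TGFb over control lost its call. Its log2 change was 0.24 with library size alone (edgeR adjusted p = 0.0592), 0.23 with log2 FPKM and a pseudocount of 0.1 or 1 with or without a filter (limma adjusted p = 0.0759, 0.077 and 0.137), 0.29 with no filter on low counts (edgeR adjusted p = 0.0513) and 0.29 with only the 2 groups (edgeR adjusted p = 0.0741). It ran from 0.18 to 0.35 with 1 library left out (edgeR adjusted p = 0.0205 to 0.0744); the cause was not tested.

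VIM was called under no setting and turned sign under several. For TGFb against control its log2 change was -0.049 with library size alone, -0.048 with each form of log2 FPKM and -0.025 with upper quartile scaling, and ran from -0.025 to 0.053 with 1 library left out. For STINGX with TGFb against TGFb it ran from -0.027 to 0.051, and for STINGX with TGFb against control from -0.011 to 0.062, with -0.024 under upper quartile scaling. Adjusted p over all these settings ran from 0.107 to 1.0.

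Deviations of same-numbered libraries of different groups correlated from -0.0153 to 0.0636, and those of differently numbered libraries from -0.0519 to 0.045. Whether the replicate numbers pair the libraries cannot be told from such small values. With the replicate block 5316, 5647 and 7116 genes were called for TGFb against control, STINGX with TGFb against TGFb and STINGX with TGFb against control (without it 5543, 5864 and 7296), and 1091, 1126 and 1632 transcripts (without it 1860, 1916 and 2751). The block changed no gene-level call named here, and ended those of KRT7-212 and KRT8-201 with TGFb over control and of KRT8-217 with STINGX and TGFb against control.

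Uncalled transcripts turned sign more readily. For TGFb against control with 1 library left out, the log2 change ran from -0.25 to 0.35 for KRT8-215, -0.15 to 0.23 for KRT8-216, -0.57 to 0.16 for KRT18-207, -0.076 to 0.55 for KRT18-206, -0.0074 to 0.13 for VIM-201, -0.49 to 0.017 for VIM-206, -0.50 to 0.11 for VIM-205, -0.20 to 0.11 for VIM-203 and -0.053 to 0.035 for KRT8P12. For STINGX with TGFb against TGFb limma-voom gave 2.25 for KRT8-215 (adjusted p = 0.707) and 1.66 for KRT18-207. For KRT7-AS, STINGX with TGFb against control gave -0.013 with upper quartile scaling and -0.11 to 0.29 with 1 library left out. On log2(FPKM + 1) with no filter the falls of KRT80 and VIM-AS1 with STINGX and TGFb against TGFb did not pass (limma adjusted p = 0.0843 and 0.0694). At this depth KRT19 could be read only as counts.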

Other observations

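Of 14 other intermediate filament genes 12 were tested: 2 rose and 3 fell with TGFb over control (13.2% and 12.8% of all genes; median log2 change -0.43, all genes -0.004), 4 rose and 3 fell with STINGX and TGFb against TGFb (13.7% and 13.8% of all genes; median 0.16, all genes 0.006), and 1 rose and 4 fell with STINGX and TGFb against control (17.2% and 17.0% of all genes; median -0.36, all genes 0.004). The count of 2 of 12 is near the share of all genes. The lamins, which line the nuclear envelope, did not share 1 pattern. LMNA averaged 151 ± 11.2 CPM in STINGX with TGFb cells, 141 ± 12.8 CPM in TGFb cells and 285 ± 17.5 CPM in control cells, and fell in both treated groups against control (log2 fold change -0.92 and -1.01, edgeR adjusted p = 8.22e-07 and 3.92e-07). LMNB2 averaged 253 ± 1.81, 401 ± 1.64 and 340.3 ± 9.90 CPM in the same groups, so it had the order of KRT8 and KRT18, and fell with STINGX and TGFb against TGFb (-0.67 ± 0.03, edgeR adjusted p = 4.41e-09). LMNB1 fell with STINGX and TGFb against TGFb (100.5 ± 14.8 CPM in STINGX with TGFb cells, 152 ± 8.65 CPM in TGFb cells, edgeR adjusted p = 0.000701).

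NES, which encodes nestin, a filament protein of progenitor and activated stellate cells, rose with TGFb over control (3.51 ± 0.499 CPM in TGFb cells, 1.65 ± 0.198 CPM in control cells, edgeR adjusted p = 0.000777) and fell with STINGX and TGFb against TGFb (1.34 ± 0.357 CPM in STINGX with TGFb cells, edgeR adjusted p = 0.000133). NEFL, the light neurofilament gene, fell with TGFb (2.51 ± 0.130 CPM in TGFb cells, 0.228 times the control level, edgeR adjusted p = 2.56e-08). SYNM, which encodes synemin, a partner of vimentin and desmin in mixed filaments, rose with STINGX and TGFb against TGFb (31.8 ± 1.73 CPM in STINGX with TGFb cells, 24.2 ± 2.10 CPM in TGFb cells, edgeR adjusted p = 0.00175). ITGA6, the partner of ITGB4, rose with STINGX and TGFb against TGFb (47.4 ± 8.50 CPM in STINGX with TGFb cells, 31.2 ± 1.16 CPM in TGFb cells, edgeR adjusted p = 0.000572).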
